A study of Mus musculus with 192 samples.

Results

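The kidneys of flown Nrf2-knockout mice were compared with the kidneys of flown wild-type mice: 3 FL_KO libraries (mice 1, 2 and 11) against 3 FL_WT libraries (mice 5, 8 and 10), chosen by their tissue, condition and genotype labels out of 192 libraries in the series. The series measured RNA in 9 tissues of mice that had been aboard the International Space Station or had stayed on the ground. All were C57BL/6 mice labelled 12 weeks of age, and the study describes them as males on the C57BL/6J background. The study gives that age for the time before launch, so the flown mice were older when dissected. Knockout mice carried the Nfe2l2 tm1Ymk allele in every cell, so no tissue was spared, and those with a shunted liver circulation were left out by the study. The allele is known as a replacement of the DNA-binding part of Nrf2 by a reporter cassette. By their labels, FL_KO differed from FL_WT in genotype. Both groups shared the launch, the stay in orbit, the return and the dissection on the ground some days after landing. The study describes a challenge with ketamine and xylazine, used to find mice with a shunt, for knockout mice only. Other differences in DNA between the groups were not measured. A second set of mice, 3 GC_KO (mice 2, 11 and 12) and 3 GC_WT (mice 6, 7 and 10), stayed on the ground in the same kind of housing and gave the same contrast without flight. The study ran this ground experiment in Japan, months after the flight, whereas the flown mice were dissected in California. Place and time of year therefore cannot be told apart from flight. Each library came from 1 mouse, and the mouse number in its label is used as its name below.

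Nrf2, encoded by Nfe2l2, is a transcription factor that is held in the cytoplasm and marked for degradation by Keap1. When electrophiles or oxidants modify Keap1, Nrf2 accumulates, pairs with a small Maf protein and binds antioxidant response elements near genes for glutathione synthesis, quinone reduction, conjugation and export of foreign compounds, NADPH supply and iron storage. In the kidney these enzymes are concentrated in the proximal tubule, which also reabsorbs filtered solutes and secretes organic anions and drugs.

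The core of the antioxidant response element, TGACNNNGC on either strand, was searched in RefSeq promoter windows (GRCm38.p6, 250 bases before to 50 bases after each annotated start), because Nrf2 binds this element. The gene lists below are grouped by function. It was found at 14.0% of 27025 genes with a window and at 16.9% of the tested genes with one. Among genes that were lower in FL_KO kidneys, 200 in all, 143 matched a window by symbol and 34 of these held the core (23.8%). Among the 74 genes that were higher, 6 of 47 matched genes held it (12.8%). Of 26 lower genes in the glutathione, quinone, NADPH and iron lists, 24 had a window and 10 held the core (41.7%), while Nqo1 and Gstm1 had no match in this window. These shares are given as a description with no test, and a match of letters is not a measured binding site. The matches of 7 of these genes that lay wholly before the start are printed with 10 bases on either side, 5′ to 3′ along the gene's strand and with the core in capitals, because they show how much the middle bases vary between genes that fell together.
Gsta3 (chr1:21240454-21240482, + strand): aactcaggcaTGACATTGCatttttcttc
Mgst1 (chr6:138140461-138140489, + strand): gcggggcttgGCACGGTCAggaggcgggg
Hfe (chr13:23710903-23710931, - strand): acagcaatccTGACTCAGCagtggctcca
Txnrd1 (chr10:82859104-82859132, + strand): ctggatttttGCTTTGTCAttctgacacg
Prdx1 (chr4:116685456-116685484, + strand): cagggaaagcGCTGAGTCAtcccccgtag
G6pdx (chrX:74428919-74428947, - strand): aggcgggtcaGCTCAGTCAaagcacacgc
Gclm (chr3:122245413-122245441, + strand): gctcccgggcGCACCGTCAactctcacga

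Expression was counted as RSEM expected counts per gene, and levels are given as the authors' TPM, which scale each count for gene length and library size. The 12 kidney libraries held 13769210 to 14648004 counts each, with 13.25% to 15.13% on mitochondrial genes. Markers of the proximal tubule, loop, distal tubule, collecting duct and glomerulus were present in every library, and the 6 adrenal and 5 muscle markers stayed under 1 TPM each in all 12. The 6 fat markers summed to 0.2 to 12.6 TPM in FL_KO and 0.14 to 0.3 TPM in FL_WT. FL_KO mouse 2 was the high one, with Adipoq at 3.61, Cidec at 4.13 and Ucp1 at 3.01 TPM, none of the 3 tested fat markers was called, and their part in the results was not tested. FL_KO mouse 11 stood apart from its own group, at 21.51 on the third principal component against -3.51 and 0.60 for FL_KO mice 1 and 2. Its clock genes were in another state. Dbp, a clock output gene, was at 57.6, 47.4 and 5.95 TPM in FL_KO mice 1, 2 and 11 and at 36.9, 10.7 and 9.72 TPM in FL_WT mice 5, 8 and 10, and Arntl, the clock activator, was at 2.33, 3.76 and 22.9 TPM against 2.83, 13.6 and 15.9 TPM. None of 20 tested clock genes was called in flight by edgeR, DESeq2 or limma and 1 had an unadjusted p under 0.05, while 16 of them lay above 0 with a median log2 fold change of 0.26. The part of the clock state in the genotype results was not tested, and values without FL_KO mouse 11 are given where a call described below changes.

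Of 15114 genes tested in FL_KO against FL_WT, 274 (1.81%) passed edgeR's quasi-likelihood test at a Benjamini-Hochberg adjusted p under 0.05. They were mostly losses: 200 genes were lower (1.32%) and 74 were higher (0.490%), and 101 changed by more than 2-fold, 68 of them downward. All 274 separated the 3 FL_KO from the 3 FL_WT libraries without overlap, which 9.06% of all tested genes did in the lower direction and 8.36% in the higher. The median log2 fold change of all tested genes was 0.01. Protein-coding genes made up 241 of the 274. Without FL_KO mouse 11 the count rose to 520, with 198 higher and 322 lower, and 250 of the 274 remained called. It fell to 167 without FL_WT mouse 8 and to 162 without FL_WT mouse 10, of which 164 and 159 were among the 274.

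The targeted gene was lower in every FL_KO library. Nfe2l2 (ENSMUSG00000015839.6, GRCm38 chr2:75675513-75704641, - strand) was at 28.9, 34.6 and 29.9 TPM in FL_KO mice 1, 2 and 11 and at 58.1, 70.9 and 60.2 TPM in FL_WT mice 5, 8 and 10. The groups did not overlap, and the log2 fold change was -1.02 (SE 0.0987, edgeR adjusted p = 1.98e-05). A gene count sums reads over all exons, so RNA from the parts of the gene that the allele keeps is still counted, and the value does not measure protein. On the ground the log2 fold change was -1.13 (edgeR adjusted p = 8.28e-06). None of the 12 other tested members of the Nrf2 and partner list passed the test: Keap1 had a log2 fold change of -0.03, the small Maf gene Mafg -0.12, Nfe2l1, a related factor, 0.09, and Sqstm1, which competes for Keap1, -0.23.

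**Figure D1:**
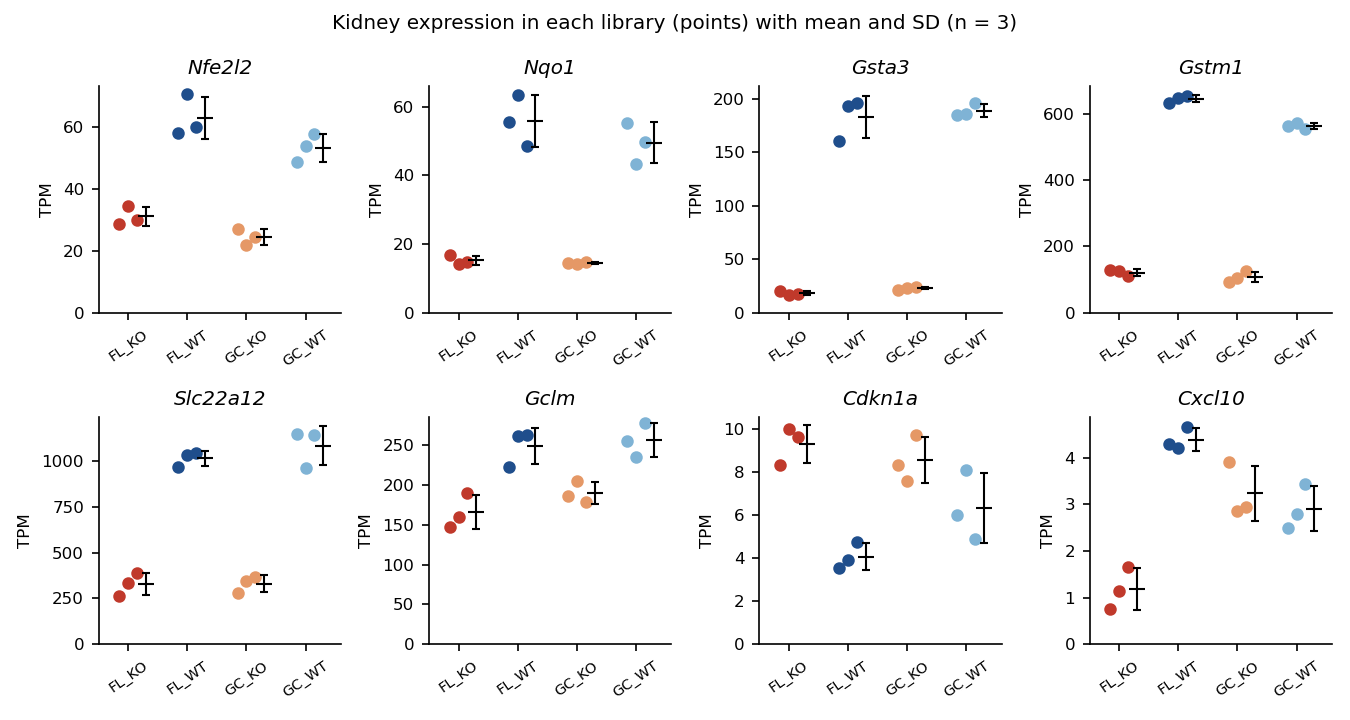
TPM (y axis, from 0) of 8 genes in each of the 12 kidney libraries, with the 4 groups on the x axis, 1 point per mouse and the mean with SD (n = 3) beside the points. Nfe2l2, Nqo1, Gsta3, Gstm1, Slc22a12 and Gclm were lower in both knockout groups, whereas Cxcl10 was lower in FL_KO than in FL_WT with no such gap between GC_KO and GC_WT, and Cdkn1a was higher in FL_KO than in FL_WT.

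Glutathione transferases, which attach glutathione to electrophiles, included Gsta3, the steepest called loss of the detoxification lists. Of 22 tested members 5 fell and 1 rose, with a median log2 fold change of -0.15. For this and every list count below, the shares over all tested genes were 1.32% lower and 0.49% higher. Gsta3 (ENSMUSG00000025934.15, GRCm38 chr1:21240589-21265661, + strand) was at 20.6, 16.8 and 17.3 TPM in FL_KO mice 1, 2 and 11, against 160.3, 193.1 and 195.8 TPM in FL_WT mice 5, 8 and 10, a 9.58-fold lower level (log2 fold change -3.26, SE 0.104, edgeR adjusted p = 1.33e-10). Gstm1, the most abundant of the 5 in wild type but not in FL_KO, was at 127.5, 125.4 and 110.1 TPM against 634.2, 648.4 and 654.7 TPM (log2 fold change -2.42, edgeR adjusted p = 3.97e-09). No FL_KO library came near the lowest FL_WT library for either gene. Mgst1, a membrane-bound transferase, lay between 37.6 and 38.7 TPM in FL_KO and between 128.0 and 135.7 TPM in FL_WT (log2 fold change -1.73). Gstp1 changed less, from 351.3 TPM on average in FL_WT to 223.5 TPM in FL_KO (log2 fold change -0.66), and Gsta2, whose reads may be split with a close relative, had -1.31. Gsto2 ran against the rest at a low level, 1.29, 1.46 and 1.20 TPM in FL_KO against 0.49, 0.17 and 0.17 TPM in FL_WT (log2 fold change 2.18, edgeR adjusted p = 0.0296), a call that was lost without FL_KO mouse 1 or 2 or FL_WT mouse 8 or 10 (adjusted p up to 0.173). Gstt1 was also called higher once FL_KO mouse 11 was left out.

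Glutathione synthesis and the thioredoxin system fell by smaller steps. Of 40 tested members 8 fell and none rose, with a median log2 fold change of -0.13. Without FL_KO mouse 11 the count was 7, with Gsr gained and Gss and Gpx4 lost. Gclm and Gclc, the 2 subunits of glutamate-cysteine ligase that sets the pace of glutathione synthesis, had log2 fold changes of -0.55 and -0.53, and Gss, which completes the peptide, had -0.45. Gclm was at 148.0, 160.6 and 189.8 TPM in FL_KO mice 1, 2 and 11 and at 223.0, 261.2 and 263.1 TPM in FL_WT mice 5, 8 and 10 (edgeR adjusted p = 7.07e-04), with FL_KO mouse 11 nearest to the wild type. Txnrd1, which reduces thioredoxin, Prdx1 and Srxn1, which remove peroxides and restore peroxiredoxins, had log2 fold changes of -0.62, -0.58 and -0.44. Catalase, encoded by Cat, was at 463.2 to 526.0 TPM in FL_KO and 654.0 to 878.5 TPM in FL_WT (log2 fold change -0.62, edgeR adjusted p = 2.01e-03), and Gpx4, which reduces lipid peroxides, had -0.41. Gsr, which recycles glutathione, did not pass the test at a log2 fold change of -0.52 (edgeR adjusted p = 0.0895).

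Among enzymes that reduce quinones and carbonyls or open epoxides, 5 of 39 tested members fell and 1 rose (median log2 fold change -0.18). Nqo1, the quinone reductase most often used as a readout of Nrf2, was at 16.8, 14.1 and 14.8 TPM in FL_KO mice 1, 2 and 11 and at 55.5, 63.5 and 48.5 TPM in FL_WT mice 5, 8 and 10, a 3.68-fold lower level (log2 fold change -1.88, SE 0.120, edgeR adjusted p = 4.54e-07). The ground mice gave the same picture, with 14.2 to 14.8 TPM in GC_KO and 43.4 to 55.3 TPM in GC_WT. The aldehyde reductase gene Akr1a1 and the hydroxysteroid dehydrogenase gene Akr1c21 had log2 fold changes of -0.60 and -0.41, and Aldh2, which oxidises acetaldehyde, had -0.40. Akr1c18, a progesterone-metabolising reductase, rose from 3.55 to 5.82 TPM in FL_WT to 17.0 to 20.8 TPM in FL_KO (log2 fold change 1.88, edgeR adjusted p = 1.15e-04). It stood higher in both ground groups than in the flown group of the same genotype, at 22.3 to 35.5 TPM in GC_KO and 11.5 to 14.0 TPM in GC_WT. Neither epoxide hydrolase Ephx1 nor carbonyl reductase Cbr1 was called: Ephx1 had a log2 fold change of 0.20 and Cbr1 -0.43 (edgeR adjusted p = 0.722 and 0.0930).

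NADPH is the electron donor for these reductases, and 4 genes of its supply fell: Pgd, G6pdx and malic enzyme Me1, whose enzymes make NADPH, and Tkt of the non-oxidative pentose phosphate branch, which does not make it itself, with log2 fold changes of -0.52, -0.55, -0.54 and -0.56. Rpe, of the same branch as Tkt, was called lower as well without FL_KO mouse 11. The list held 16 symbols and 17 tested genes, since Nnt has 2 gene models, and its median log2 fold change was -0.18. Pgd was at 48.7, 47.7 and 55.4 TPM in FL_KO mice 1, 2 and 11 and at 71.7, 75.4 and 69.0 TPM in FL_WT mice 5, 8 and 10 (edgeR adjusted p = 4.71e-04), so that the groups lay apart with a modest difference.

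Nnt, the mitochondrial transhydrogenase, was the only member of that list that rose. One of its 2 gene models was at 48.6, 45.2 and 36.1 TPM in FL_KO mice 1, 2 and 11 and at 4.41, 10.8 and 5.99 TPM in FL_WT mice 5, 8 and 10 (log2 fold change 2.63, edgeR adjusted p = 1.31e-03). The other model, which overlaps it, had a log2 fold change of 0.05, and the sum of both was 84.4 to 87.5 TPM in FL_KO against 47.4 to 48.6 TPM in FL_WT. The C57BL/6J substrain is known for a deletion within Nnt that other C57BL/6 substrains lack. Within 1 Mb of Nnt on chromosome 13, Ccl28, a mucosal chemokine, was also higher (log2 fold change 2.38) and Tmem267 lower (-1.44), whereas Paip1 and Hmgcs1 had -0.04 and 0.13. Nfe2l2 lies on chromosome 2. A substrain difference between the knockout and wild-type mice and the loss of Nrf2 cannot be told apart here.

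Of 21 haem and iron genes, 4 fell and none rose (median log2 fold change -0.13). The ferritin chains Ftl1 and Fth1, which store iron and were among the most abundant kidney RNAs, had log2 fold changes of -0.49 and -0.39. Hfe, which takes part in sensing iron, was at 3.91, 6.20 and 5.86 TPM in FL_KO mice 1, 2 and 11 and at 12.8, 14.2 and 11.9 TPM in FL_WT mice 5, 8 and 10 (log2 fold change -1.10, edgeR adjusted p = 5.33e-05). The transferrin receptor Tfrc had -0.75. The calls of Tfrc and Fth1 were weak: each was lost without any 1 of at least 4 of the flown mice, with adjusted p up to 0.177 and 0.140. Hmox1, which breaks down haem, had a log2 fold change of -0.94 that missed the threshold in flight (edgeR adjusted p = 0.0532) and -1.12 on the ground, where it passed (0.0239). Its level was 31.7, 40.3 and 36.9 TPM in FL_KO mice 1, 2 and 11 and 71.9, 87.6 and 47.7 TPM in FL_WT mice 5, 8 and 10. Without FL_KO mouse 11, Fth1 was no longer called and the iron exporter Slc40a1 was called lower.

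Conjugation, oxidation and export of foreign compounds changed at a minority of their genes. Among 30 glucuronidation and sulfation genes 3 fell and 1 rose: Ugt1a7c was at 139.6, 156.9 and 148.4 TPM in FL_KO mice 1, 2 and 11 against 311.3, 337.7 and 344.0 TPM in FL_WT mice 5, 8 and 10 (log2 fold change -1.17, edgeR adjusted p = 3.78e-06), and Ugdh, which makes the sugar donor, had -0.96. Ugt1a10 was 7.26-fold lower in flight, at 1.52 to 3.14 TPM in FL_KO and 14.0 to 18.4 TPM in FL_WT. Its level in both ground groups was 0.34 to 2.91 TPM, so the flown wild-type mice were the group that stood out. The difference of its genotype effect between flight and ground had an unadjusted edgeR p of 0.0492 and was not called after adjustment. The Ugt1a genes share exons, and reads between them are divided by estimate. Ugt2a3, at most 1.47 TPM in any FL_KO kidney, was the one that rose (log2 fold change 1.38, edgeR adjusted p = 0.0472), and it was no longer called without FL_KO mouse 2 or 11 or any FL_WT mouse (adjusted p up to 0.212). Nat2 was called higher and Ugt3a1 lower without FL_KO mouse 11.

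Of 44 cytochrome P450 genes 3 fell and 2 rose, with a median log2 fold change of 0.01. Without FL_KO mouse 11 the count was 4 lower and 4 higher, with Cyp1a1 and Cyp2d22 added above and Cyp51 below. Cyp7b1, an oxysterol hydroxylase, was at 33.8, 37.2 and 42.3 TPM in FL_KO mice 1, 2 and 11 and at 85.9, 82.2 and 104.5 TPM in FL_WT mice 5, 8 and 10 (log2 fold change -1.28, edgeR adjusted p = 6.58e-06). The near-identical pair Cyp2a4 and Cyp2a5 had -1.04 and -2.38, and the near-identical pair Cyp4a12a and Cyp4a12b, male-biased fatty acid hydroxylases, had 1.46 and 0.73. Counts within each pair are uncertain because their reads are split by estimate. Cyp4a12a lost its call without any 1 flown mouse except FL_KO mouse 11 (adjusted p up to 0.140), and Cyp2a5 without FL_KO mouse 2 (0.0617) or FL_WT mouse 10 (0.0513). Among 16 efflux transporters Abcc2, Abcc4 and Abcc9 fell (log2 fold changes -0.72, -0.92 and -0.65), the first 2 being exporters of glutathione and glucuronide conjugates, and none rose. Of 9 carboxylesterases Ces2c and Ces2b fell (-0.97 and -0.70), the second only with all FL_WT mice and FL_KO mice 1 and 2 included (adjusted p up to 0.230 without 1 of them), and Abcc9 lost its call without FL_WT mouse 10 (0.0504). The exporter Abcg2 was also called lower without FL_KO mouse 11.

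**Figure D2:**
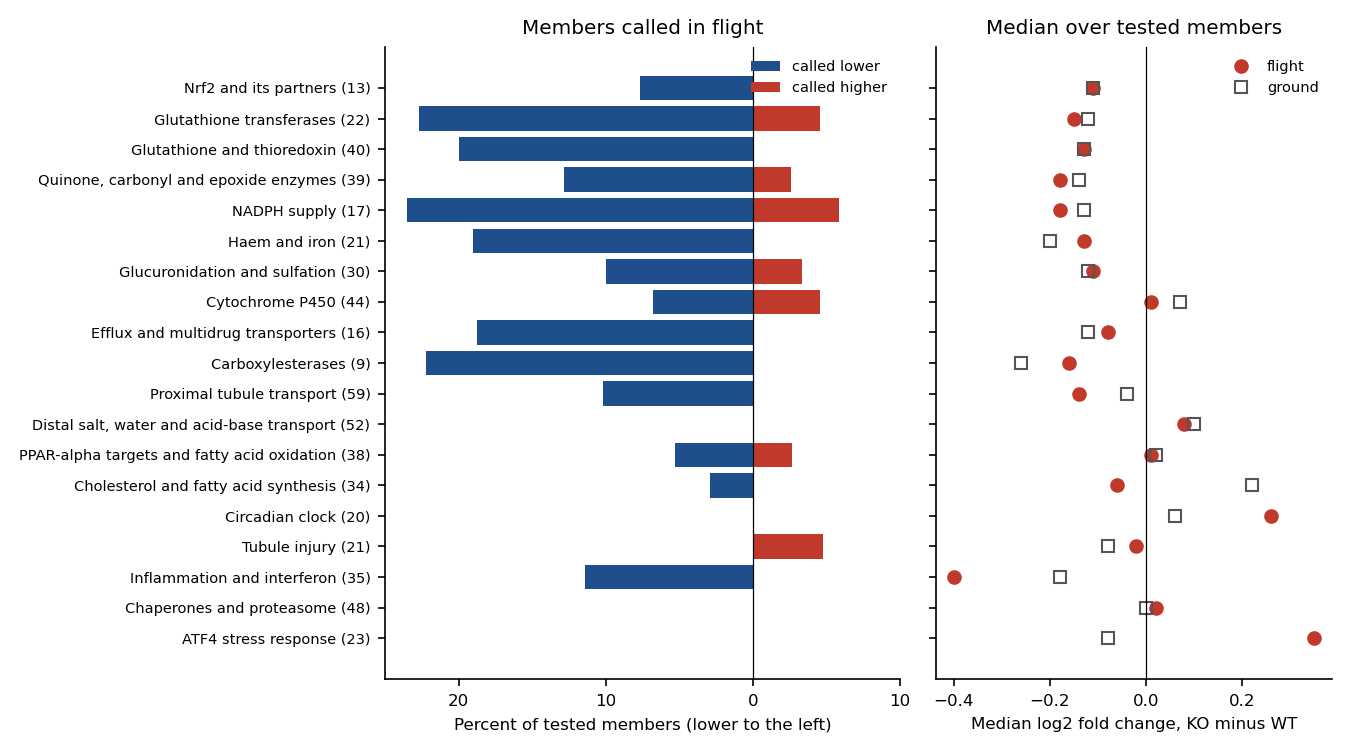
For each of 19 gene lists, with the number of tested members in brackets, the left panel gives the percent of members called lower (to the left) or higher (to the right) in FL_KO against FL_WT. The right panel gives the median log2 fold change of the tested members in flight and on the ground. Members called lower outnumbered those called higher in each of the first 7 lists and in the P450 list (there not without FL_KO mouse 11, with 4 each way), and the medians of the inflammation list were -0.40 in flight and -0.18 on the ground.

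Some transport genes of the proximal tubule fell, and those of the distal nephron gave no call. Of 59 proximal transport genes 6 fell and none rose (median log2 fold change -0.14), and of 52 distal salt, water and acid-base genes none was called by edgeR (median 0.08), 13 had an unadjusted p under 0.05, DESeq2 called 2 and limma 1. When FL_KO mouse 11 was left out, edgeR called 3 distal genes higher and 2 lower. Slc22a12, the apical urate transporter URAT1, was at 265.1, 331.6 and 386.3 TPM in FL_KO mice 1, 2 and 11 and at 966.7, 1034 and 1043 TPM in FL_WT mice 5, 8 and 10, a 3.14-fold lower level (log2 fold change -1.65, SE 0.122, edgeR adjusted p = 1.73e-06). Its lowest wild-type value exceeded every knockout value, in flight as on the ground, where GC_KO mice had 277.6 to 368.9 TPM and GC_WT mice 959.9 to 1150 TPM. Slc13a3, a dicarboxylate transporter, Slc16a9, of the monocarboxylate transporter family, and Slc22a6, the basolateral organic anion transporter OAT1, had log2 fold changes of -0.98, -0.67 and -0.49. Slc7a13 and the organic cation transporter Slc22a2 had -0.60 and -0.32, and without FL_KO mouse 11 Slc22a2 was no longer called. Slc22a8, the related transporter OAT3, had -0.49 without passing the test (edgeR adjusted p = 0.207).

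Markers of the proximal tubule moved in part with these genes. The summed level of its 8 markers was 3695 to 3926 TPM in FL_KO and 4207 to 4536 TPM in FL_WT, and 2 of the 8 fell, both of them transporters that also stand in the transport list. The fallen markers were Slc22a6 and Slc7a13. Of the other 6, the scavenger receptors Lrp2 and Cubn had log2 fold changes of -0.11 and -0.22, the phosphate transporter Slc34a1 -0.14, the glucose transporter Slc5a2 -0.03 and Slc22a8 -0.49. Slc5a12, a lactate transporter, had 0.44, at 70.4 to 86.4 TPM in FL_KO and 50.3 to 63.3 TPM in FL_WT, without passing the test (edgeR adjusted p = 0.263). The 7 collecting duct markers summed to 594 to 720 TPM in FL_KO and 443 to 545 TPM in FL_WT, and none was called. In pieces of whole kidney, fewer cells of a type and less RNA per cell cannot be told apart.

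Outside the detoxification genes, the glutamine transporter gene Slc38a3 and alpha-1-antitrypsin genes, both better known from the liver, were far lower in FL_KO. Slc38a3 (ENSMUSG00000010064.15, GRCm38 chr9:107650634-107669530, - strand), also called SNAT3, which supplies ammonia production in the proximal tubule, was at 1.34, 1.35 and 2.17 TPM in FL_KO mice 1, 2 and 11 and at 22.9, 24.0 and 19.2 TPM in FL_WT mice 5, 8 and 10, a 13.7-fold lower level (log2 fold change -3.78, SE 0.159, edgeR adjusted p = 3.38e-09). Serpina1d and Serpina1a, 2 of the near-identical genes for the protease inhibitor alpha-1-antitrypsin, had log2 fold changes of -2.97 and -3.40. Serpina1d was at 25.2, 35.3 and 37.9 TPM against 250.1, 270.1 and 240.9 TPM. The liver marker list was set beside these genes: its sum was 26.9 to 93.1 TPM in FL_KO and 118 to 130 TPM in FL_WT, and Serpina1a is 1 of its 5 members. Alb, the defining liver marker, was at 6.26, 4.29 and 47.6 TPM in FL_KO mice 1, 2 and 11 and at 6.63, 7.47 and 5.81 TPM in FL_WT mice 5, 8 and 10, so FL_KO mouse 11 was high and the other 5 libraries were alike.

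Fewer genes rose. The steepest rises were of the predicted genes Gm7868, Gm27177, Gm3608 and Gm30551, with log2 fold changes of 5.93, 4.94, 4.61 and 4.02, followed by the phosphodiesterase Pde11a (2.95), Nnt as above and Bcl2l15 (2.43). Of 38 tested PPAR-alpha targets and fatty acid oxidation genes, 1 rose, Crot and Cd36 fell (log2 fold changes -0.45 and -0.57), and the median was 0.01. Crot and Cd36 were not called without FL_KO mouse 1, FL_WT mouse 8 or FL_WT mouse 10 (adjusted p up to 0.156 and 0.157), Crot also not without FL_KO mouse 2 (0.0923). Creb3l3 was called higher without FL_KO mouse 11. Of 34 cholesterol and fatty acid synthesis genes Stard4 fell (log2 fold change -0.49) and none rose, with a median of -0.06. Over all tested genes 1.81% were called. Hsd3b2, a steroid dehydrogenase, was at 193.2, 205.3 and 375.0 TPM against 67.6, 55.5 and 97.3 TPM (log2 fold change 1.70, edgeR adjusted p = 8.82e-03). Its relatives Hsd3b3 and Hsd3b4, singled out after their values were seen, went the other way at -1.36 and -0.78, and reads of this family may be split. Fcamr, an Fc receptor for IgA and IgM, had 1.61. The predicted genes Gm7868 and Gm3608 lay between 7 and 15.5 TPM in FL_KO and at 1.09 TPM or less in FL_WT, and Gm5859 and Gm42397 were the reverse, at 0.31 TPM or less in FL_KO and 4.04 to 8.28 TPM in FL_WT. Gm5859 lies on chromosome 4 beside Gm13301, Gm10600 and Gm17167, singled out after their values were seen. These neighbours had log2 fold changes of -9.23, -8.31 and -6.55 in flight and -9.27, -8.49 and -6.17 on the ground. Gm5859 and these neighbours had mean levels of 0.03 TPM or less in FL_KO and 0.85 to 5.21 TPM in FL_WT. Each was also called lower in the flown knockout liver, and the cause was not tested.

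Over all tested genes edgeR called 1.81%. Of 21 tested tubule injury genes, Cdkn1a was the only one called by edgeR, 3 had an unadjusted p under 0.05, DESeq2 called 2 and limma 1. This cell cycle inhibitor, p21, was at 8.31, 10 and 9.63 TPM in FL_KO mice 1, 2 and 11 and at 3.56, 3.92 and 4.75 TPM in FL_WT mice 5, 8 and 10, a 2.30-fold higher level (log2 fold change 1.20, edgeR adjusted p = 1.16e-03). The ground groups were at 7.61 to 9.72 TPM in GC_KO and 4.88 to 8.11 TPM in GC_WT, which overlapped. The injury markers Havcr1 and Lcn2 had log2 fold changes of -0.20 and 0.16 in flight, at mean levels of at most 4 TPM, and the list median was -0.02. Spp1 and Itgb6 of this list were called lower without FL_KO mouse 11. None of 48 chaperone and proteasome genes and none of 23 tested genes of the ATF4 stress response (22 symbols, with 2 models of Ddit3) passed edgeR's test. At an unadjusted p under 0.05 there were 3 and 6 of them, and DESeq2 called 0 and 3 and limma 0 and 1. The ATF4 list had a median of 0.35 in flight and -0.08 on the ground, and without FL_KO mouse 11 the flight median was 0.19, Atf4 was called higher and Gdf15 lower.

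Some genes induced by interferon gamma were lower in FL_KO. Of 35 tested inflammation and interferon genes, 4 fell, none rose, and 29 lay below 0 with a median log2 fold change of -0.40, against 0.01 for all genes. Over all tested genes 1.32% fell and 0.49% rose. Cxcl10, a T cell attractant, was at 0.76, 1.15 and 1.65 TPM in FL_KO mice 1, 2 and 11 and at 4.29, 4.21 and 4.67 TPM in FL_WT mice 5, 8 and 10 (log2 fold change -1.90, SE 0.260, edgeR adjusted p = 6.96e-04). Cxcl9, which binds the same receptor, was at 0.25 TPM on average in FL_KO and 0.94 TPM in FL_WT (log2 fold change -1.91). Gbp2, a guanylate-binding protein, was at 2.06, 2.84 and 2.58 TPM against 5.72, 6.58 and 7.13 TPM (log2 fold change -1.38, edgeR adjusted p = 8.39e-04). H2-Ab1, an MHC class II chain that presents antigen, was at 63.2 to 68.6 TPM against 90.3 to 110.1 TPM (log2 fold change -0.58), and its partner Cd74 had -0.41 without passing the test (edgeR adjusted p = 0.0598). Without FL_KO mouse 11, 7 members fell, with Rsad2 and Ciita among those added. H2-Ab1 lost its call without FL_KO mouse 2 (adjusted p = 0.0812) or FL_WT mouse 10 (0.0977), and Cxcl9 without FL_WT mouse 10 (0.0502). The 6 macrophage markers summed to 63.7 to 86.7 TPM in FL_KO and 64.6 to 71.8 TPM in FL_WT with none called, and lymphocyte markers summed to at most 3.40 TPM in either flown group. Among called immune genes outside these lists, singled out after their values were seen, the antigen presentation genes H2-DMa and Wdfy4 and the dendritic cell integrin Itgax were lower (log2 fold changes -0.75, -1.15 and -0.93), and the T cell gene Cd8a was higher (1.61). The part of immune cell numbers in these differences was not tested.

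In the ground mice, the same contrast called 239 genes (1.58%), 80 higher (0.529%) and 159 lower (1.05%). Of the 274 genes called in flight, 273 (99.6%) had the same direction on the ground, against 64.8% of all tested genes, and 160 were called there in that direction, which is 58.4% of the flight calls and 66.9% of the ground calls. The flown and ground groups share no mice and also differed in place and time of year. The exception in direction was Cxcl10, with a log2 fold change of 0.14 on the ground. The main targets kept their size: the ground values were -3.03 for Gsta3, -2.39 for Gstm1, -1.79 for Nqo1, -1.72 for Slc22a12 and -3.47 for Slc38a3. Across the 274 genes the median absolute log2 fold change was 0.76 in flight, where they were chosen, and 0.64 on the ground.

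**Figure D3:**
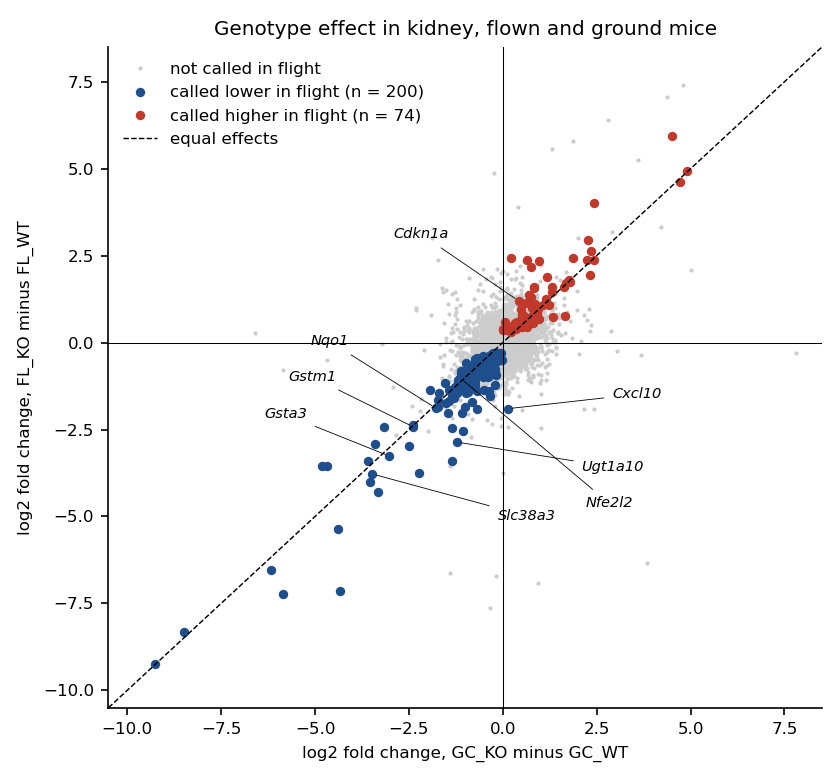
Each point is 1 of 15114 genes, with its log2 difference between knockout and wild type in ground mice on the x axis and in flown mice on the y axis. Of the 200 blue and 74 red points called in flight, 273 lie in the quadrants of equal direction. The dashed line marks equal effects, and Cxcl10 and Ugt1a10 are among the genes far from it.

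Whether the genotype effect itself differed between flown and ground mice was tested as an interaction in the same fit. No gene passed (edgeR, 0 of 15114), with a smallest adjusted p of 0.601, while 483 genes (3.20%) had an unadjusted p under 0.05, 42 of them flight calls, and DESeq2 called 3. The count was 5 without FL_KO mouse 11 and 1 without FL_KO mouse 2. The genes with the smallest unadjusted p were Cxcl10, Ceacam2, Hao2 and Zc3h6 (3.98e-05, 2.97e-04, 3.08e-04 and 3.45e-04). Cxcl10 was at 2.85 to 3.92 TPM in GC_KO and 2.49 to 3.44 TPM in GC_WT, between the 2 flown groups. Hao2, a peroxisomal oxidase, was higher in the knockout in both settings, by 0.77 in flight and 1.65 on the ground on the log2 scale. Ceacam2, an adhesion molecule, had 0.31 in flight and 1.47 on the ground, and Zc3h6 had -0.57 and 0.60.

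Position around the targeted gene was examined, since DNA that flanks a targeted allele can come from another strain. On chromosome 2, Nfe2l2 itself aside, genes within 5 Mb of it gave 3 calls among 63 tested (4.76%), Pde11a and Pde1a higher and Gm13655 lower, genes at 5 to 10 Mb gave 0 among 47 (0%), genes at 10 to 20 Mb 2 among 86 (2.33%), genes at 20 to 40 Mb 5 among 116 (4.31%) and genes beyond 40 Mb 6 among 856 (0.701%). In these bins, which pool both sides of Nfe2l2, the share did not fall steadily with distance. Within 40 Mb the calls were 1-sided. Gm13655 lay at lower coordinates, 0.057 Mb away. All other calls in that range lay at higher coordinates, from Pde11a at 0.47 Mb to Them7 at 29.61 Mb. For the whole chromosome with Nfe2l2 the share was 17 among 1169 (1.45%), against 1.81% of all genes. Pde1a, a calcium-dependent phosphodiesterase, was at 30.3 to 44.0 TPM in FL_KO and 13.4 to 17.0 TPM in FL_WT (log2 fold change 1.08). Mdk, the growth factor midkine, was at 137.8 to 185.0 TPM against 64.7 to 81.2 TPM (1.11), 16.24 Mb away, and Cd59a, a complement inhibitor, was at 7.67 to 9.21 TPM against 22.2 to 26.4 TPM (-1.50), 28.42 Mb away. Catalase lies at a like distance, among the 5 calls at 20 to 40 Mb. For all of these, flanking DNA and the loss of Nrf2 cannot be told apart.

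**Figure D4:**
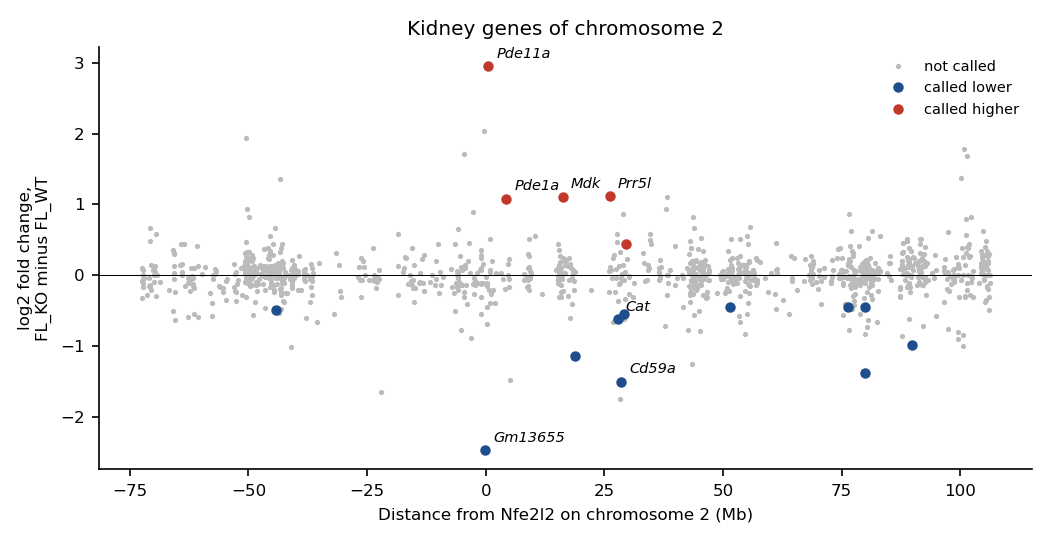
Log2 fold change in FL_KO against FL_WT (y axis) of the tested genes of chromosome 2 by their distance from Nfe2l2 in Mb (x axis), with called genes in colour. The called genes with differences beyond 1 on the log2 scale sit mostly between the position of Nfe2l2 and 30 Mb on its right.

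The liver of the same 6 flown mice was used to see which kidney differences were shared, because the liver relies on many of the same enzymes. The liver libraries held 14910714 to 15318155 counts. The genotype contrast in liver, fitted on the 6 liver libraries alone, called 65 of 12769 genes (0.509%). The kidney fit shared its spread over 12 libraries, and the kidney's 2 flown groups alone gave 175 calls. Of 206 kidney calls that could be tested in liver, 154 (74.8%) had the same direction and 28 were called in it. That is 13.6% of these kidney calls and 43.1% of the liver calls. Nqo1 had -2.19 in liver without passing the test (edgeR adjusted p = 0.18). Among these shared calls, Nfe2l2, Gstm1, Hfe, Ces2c, Gsta2 and Me1 were lower in both organs, as were Cd59a, Tmem267 and predicted genes such as Gm13301. Others were higher in both, among them Nnt, Wdfy1, Entpd4, Vcpkmt and Cyp4a12a. Gstm1 in liver was at 408.1, 332.2 and 356.7 TPM in FL_KO mice 1, 2 and 11 and at 1597, 1184 and 1266 TPM in FL_WT mice 5, 8 and 10 (log2 fold change -1.87, edgeR adjusted p = 3.47e-03).

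A genotype-by-organ test with the mouse as a block called 31 of 15463 genes (0.200%), 18 with a lower (0.116%) and 13 with a higher (0.0841%) value in kidney. Gsta3 fell in kidney, as above, but was at 1231 to 1680 TPM in FL_KO liver and 2107 to 2278 TPM in FL_WT liver, a log2 fold change of -0.54 that did not pass the test there, and the difference between the organs was -2.71 (SE 0.208, edgeR adjusted p = 1.42e-03). The same held for Mgst1, with -1.73 in kidney and -0.22 in liver, a difference of -1.52 (8.56e-03). Slc38a3 and Serpina1a, which the liver expresses at far higher levels, had differences of -3.30 and -3.53, the first of which lost its call without any 1 of FL_KO mice 1 and 2 and FL_WT mice 8 and 10 (adjusted p up to 0.132). Cyp7b1 had -1.28 in kidney and 0.69 in liver (difference -1.95, edgeR adjusted p = 1.42e-03), and H2-Ab1 -0.58 and 0.54 (difference -1.12, 0.0176). The reverse pattern was seen for Ces1g, a carboxylesterase at 72.2 to 82.7 TPM in FL_WT liver and 3.35 to 9.11 TPM in FL_KO liver: its kidney log2 fold change was -0.21 and the difference 3.31 (3.09e-04). In ground kidneys, however, Ces1g was called lower in the knockout (log2 fold change -2.11, edgeR adjusted p = 6.92e-03). Its kidney means were 5.55 TPM in GC_KO, 23.7 TPM in GC_WT, 7.40 TPM in FL_KO and 8.59 TPM in FL_WT. Mapk15 and Adora1 also fell in liver (-3.05 and -2.46) with kidney values of 0.26 and 0.44. The count of 31 rested on single mice, being 105 without FL_KO mouse 11, 9 without FL_WT mouse 8 and 12 without FL_WT mouse 10.

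**Figure D5:**
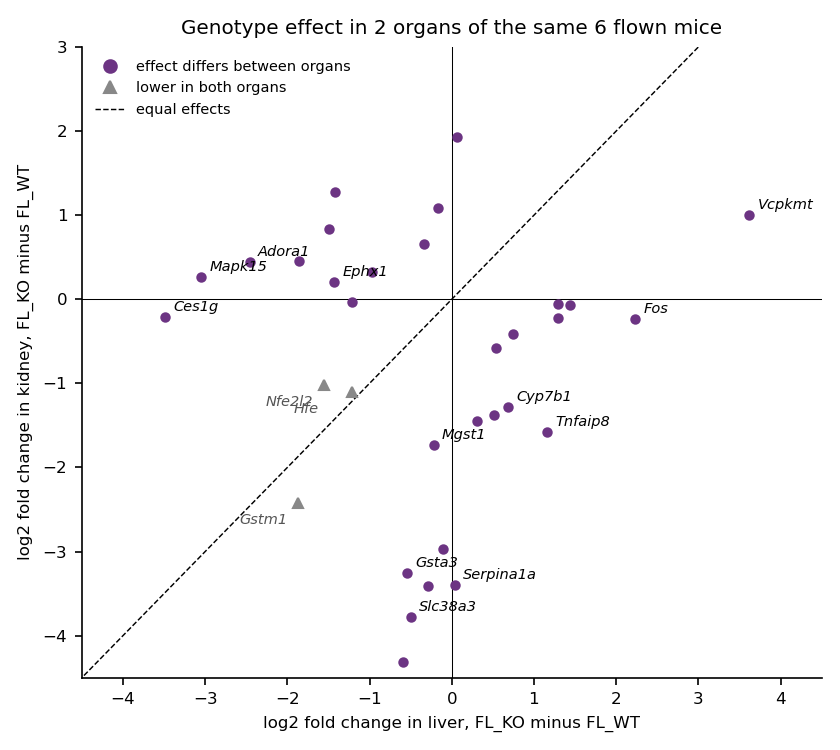
Log2 fold change in liver (x axis) against kidney (y axis) of the same 6 flown mice, for the genes whose genotype effect differed between the organs and could be fitted in both (circles) and for 3 genes lower in both (triangles). Gsta3, Slc38a3, Serpina1a and Mgst1 lie near 0 on the liver axis and far below 0 on the kidney axis, and Ces1g, Mapk15 and Adora1 the other way round.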

How the data were processed

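RNA from kidney was measured by RNA sequencing in 12 mice, and from liver in the 6 flown ones. Per the labels, the authors aligned reads with STAR 2.6.1 to mm10 and estimated values per gene with RSEM 1.3.1. They deposited expected counts, TPM and FPKM for 54752 genes. Of the value columns, 36 were used and 540 were not, FPKM among them. RSEM divides reads shared between similar genes by estimate, and the strand setting is not given in the sources used here, so antisense and near-identical genes are uncertain. The library kit keeps strand.

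Expected counts as deposited by the authors (5.54% not whole) were rounded and fitted in edgeR 4.0.16 (R 4.3.3) with TMM factors, filterByExpr and robust quasi-likelihood, all 12 kidney libraries in 1 fit of 4 groups, called at a Benjamini-Hochberg adjusted p under 0.05. The test of the difference between kidney and liver used mouse as a block, since both organs came from the same animals. The genotype contrast in liver was a separate fit of its 6 flown libraries. SE is the absolute log2 fold change divided by the square root of F. TPM, as deposited by the authors, gave levels, and limma 3.58.1 on log2(TPM + 1) an alternative, as did DESeq2 1.42.0. The fit was tested on simulated data with known changes before use. Coordinates come from GENCODE vM21 on GRCm38 (99.9% of identifiers matched). Named genes were Nfe2l2, the 12 steepest called genes each way with non-overlapping libraries and at least 5 TPM, up to 4 called members per list with members against the trend, and the top genes of each difference test; others are named as seen afterwards. The comparison, gene lists and tests were chosen with earlier results of these data known. Each p-value sets a difference against the spread between mice within groups, which in the kidney fit was shared over all 12 libraries. Some genes that the rule names are not reported here.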

Additional observations from a re-analysis of the deposited data

Results flagged for a closer look

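The genotype effect differed between kidney and liver of the same flown mice for 31 genes, by the edgeR test of the difference itself with the mouse as a block. The difference, kidney minus liver on the log2 scale, was 4.89 for Ccl28, which was near 0 TPM in liver, -3.30 for Slc38a3, -3.53 for Serpina1a, -2.88 for Serpina1d and -3.69 for 2810459M11Rik, which was at 0.92 TPM or less in kidney. Ccl28 lost its call without FL_KO mouse 2, FL_WT mouse 8 or FL_WT mouse 10 (adjusted p 0.0803 to 0.0965), and Slc38a3 without any 1 of FL_KO mice 1 and 2 and FL_WT mice 8 and 10. The call of 2810459M11Rik was lost without the mouse as a block (0.0964) and without any 1 flown mouse except FL_KO mouse 11 (up to 0.122). It was 3.31 for Ces1g, 3.30 for Mapk15 and 2.90 for Adora1, all of which were lower in the knockout liver. Ces1g was also called lower in the knockout kidney on the ground (log2 fold change -2.11), though not in flight (-0.21).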

How the results depend on the processing

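The log2 fold change of Nfe2l2 lay between -0.95 and -1.12 in every alternative and stayed called. No named gene changed direction: of 65 named genes called in flight, 48 stayed called in all alternatives in which they were tested, and 641 of 709 values kept their call. The 274 flight calls became 424 with DESeq2, 283 with RLE factors, 190 with limma, 350 without the filter on low counts and 175 with the 2 flown groups alone, and 162 to 520 when 1 of the 6 flown kidneys was left out. The 239 ground calls became 153 to 243 when 1 ground mouse was left out. The difference between flight and ground gave 0 calls by edgeR, 3 by DESeq2 and 0 to 5 when 1 mouse was left out. The difference between kidney and liver gave 31 calls, 81 with DESeq2, 69 without the filter, 32 with no replicate block and 9 to 105 when 1 mouse was left out. The cause of these shifts was not tested. No paired analysis was possible because flown knockout and wild-type mice share no mouse number.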

Other observations

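The calls held a run of interferon-inducible genes, singled out after their values were seen, of which Gbp2 also stands in the inflammation list. Of 17 tested guanylate-binding proteins and immunity-related GTPases, which attack the vacuoles of intracellular microbes, edgeR called 9 lower in FL_KO, 0 higher and 8 not. No list of them was set apart from these values, and no share or test for the family is given. The 9 were Gbp10, Gbp6, Gbp2, Iigp1, Igtp, Irgm1, Irgm2, Tgtp1 and Ifi47, and with the ubiquitin-like Ubd they made 10 genes with log2 fold changes from -3.41 to -0.55. Iigp1 had -1.70 and Igtp -1.16 in flight (edgeR adjusted p = 3.39e-03 and 0.0153). On the ground the same genes had values from -3.41 to -0.18, and 1 of the 10, Ubd, was called there. In 9 of 10 the flight value was the larger, and for 6 of 10 the difference between flight and ground had an unadjusted p under 0.05, but each had an adjusted p of 1. These genes were chosen by their flight calls, which favours a larger flight value. Of all 274 flight calls, 207 were larger in flight and 42 had an unadjusted edgeR p under 0.05 for the difference. The 8 without a call were Tgtp2, Gbp3, Gbp4, Gbp5, Gbp7, Gbp8, Gbp9 and 9930111J21Rik2, with log2 fold changes from -0.78 to -0.14. Members of these families resemble each other in sequence, so reads may be split between them.

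Of the 215 calls outside the pathway lists, 4 enzymes of amino acid or one-carbon metabolism were singled out after their values were seen, with no list of such enzymes and no count over them. Aldh1l1, a folate enzyme, was at 155.7, 146.4 and 139.8 TPM in FL_KO mice 1, 2 and 11 and at 257.2, 284.1 and 261.0 TPM in FL_WT mice 5, 8 and 10 (log2 fold change -0.86). Csad, which makes the taurine precursor, had -0.61, and Uroc1, of histidine breakdown, -0.92. Aadat, of lysine and tryptophan breakdown, rose with 0.72.

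The clock genes sorted the libraries in another way than the groups did. Dbp was at 32.7 to 57.6 TPM in FL_KO mice 1 and 2, FL_WT mouse 5, GC_KO mouse 2 and GC_WT mouse 6, and at 5.95 to 11.7 TPM in the other 7. Per1 was at 43.3, 42.9 and 6.71 TPM in FL_KO mice 1, 2 and 11.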
